A study of Homo sapiens with 24 samples.

Results

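The aminoacyl-tRNA synthetases, the enzymes that load each amino acid onto its tRNA, were examined in 2 human prostate cancer cell lines treated with Siomycin A. The set was a list of 37 genes, drawn up by name and function with earlier results of these data known. It held 19 genes of cytosolic synthetases, 16 of mitochondrial synthetases, and the scaffold proteins AIMP1 and AIMP2. Each gene was read from the probe with the highest mean over all 24 arrays. In all, 34 of the 37 could be tested, 18 cytosolic and 16 mitochondrial, among 13344 genes tested. CARS1 and AIMP2 were not analysed here, because no probe was paired with them. The AIMP1 probe (ILMN_1715351) was above background on 0 arrays, with log2 signals between 4.32 and 4.94, and was not tested. Of the 34 tested members 33 were above background on all 24 arrays. The remaining one, WARS2, was above background on the 12 PC3 arrays and on no LNCaP array.

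Human cells carry 2 nearly separate sets of these enzymes, both encoded in the nucleus. Cytosolic enzymes, whose symbols end in 1 or in a subunit letter, charge the tRNAs used by cytosolic ribosomes, while most enzymes with symbols ending in 2 are imported to charge mitochondrial tRNAs. GARS1 and KARS1 give rise to forms for both compartments and were counted as cytosolic. Several cytosolic enzymes (EPRS1, IARS1, LARS1, MARS1, QARS1, RARS1 and KARS1) sit in a multisynthetase complex held together by scaffold proteins, and the rest work free of it. When amino acids run short, uncharged tRNA activates the kinase GCN2, and phosphorylated eIF2 then favours translation of the transcription factor ATF4. ATF4 is known to raise the transcription of many cytosolic synthetase genes, often through an element that it binds together with a C/EBP partner.

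Promoters are shown because members that moved together differed in whether they held the core of that element, TGATGNAA, where N is any base. The RefSeq windows (GRCh38.p14, 250 bases before to 50 after each start) covered 29 of the 34 tested members. LARS1, VARS1, YARS1, AARS2 and VARS2 had no entry. On either strand, TGATGNAA was found in 6 of 15 cytosolic genes (40%), in 1 of 14 mitochondrial genes (7.14%, YARS2) and in 4.46% of all 27305 genes of the table. The 6 matches, in the direction of the gene with the match in capitals, were the following; TTGCATCA and TTTCATCA are the same core read on the opposite strand. GARS1 and TARS1 have a pair of starts each in the table, of which 1 holds a match.
AARS1: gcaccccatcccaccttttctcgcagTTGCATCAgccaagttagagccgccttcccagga
GARS1: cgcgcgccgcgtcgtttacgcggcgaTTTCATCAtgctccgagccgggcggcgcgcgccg
IARS1: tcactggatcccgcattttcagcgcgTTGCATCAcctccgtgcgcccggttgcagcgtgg
MARS1: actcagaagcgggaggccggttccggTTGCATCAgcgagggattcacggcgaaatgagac
NARS1: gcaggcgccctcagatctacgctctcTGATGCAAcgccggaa
TARS1: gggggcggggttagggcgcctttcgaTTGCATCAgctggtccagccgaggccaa
They lie at chr16:70289660-70289719 (minus strand) for AARS1, chr7:30594819-30594878 (plus) for GARS1 and chr9:92293677-92293736 (minus) for IARS1. Those of MARS1, NARS1 and TARS1 lie at chr12:57488038-57488097 (plus), chr18:57621807-57621848 (minus) and chr5:33440941-33440994 (plus). The first base of the match was at -187 from the start in AARS1, at -33 in GARS1, at -13 in IARS1 and at -4 in MARS1. In NARS1 and TARS1 it was downstream of the start, at 15 and 3.

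Another pair of promoters is shown for genes that stand out below, MARS2 for the palindrome bound by the nuclear factor NRF1 and WARS1 for the core of interferon response elements, GAAA repeated after a gap of any pair of bases.
MARS2: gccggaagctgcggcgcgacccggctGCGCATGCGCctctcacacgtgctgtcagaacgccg
WARS1: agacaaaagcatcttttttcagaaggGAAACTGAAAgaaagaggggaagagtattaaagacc
They lie at chr2:197705316-197705377 (plus strand) and chr14:100375367-100375428 (minus), with the matches starting at -27 and -55. The NRF1 palindrome, in capitals in MARS2, was in 0 of 15 cytosolic and 1 of 14 mitochondrial genes against 1.52% of all genes, and the interferon core in 1 of 15 and 1 of 14 against 4.38%. CCGGAAGT, the core bound by ETS factors, was in 4 of 15 cytosolic and 3 of 14 mitochondrial genes against 4.95%. Both strands were searched for each motif. A match is a run of letters and not a measured binding site.

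PC3, an androgen-independent line, and LNCaP, an androgen-responsive one, received Siomycin A or its solvent DMSO. RNA was taken after 24 h or 48 h, which makes 8 groups of 3 arrays. Siomycin A, a sulfur-rich peptide antibiotic from bacteria, is known as a proteasome inhibitor that also reduces the transcription factor FOXM1. The treatment protocol gives a dose of 0.5 microM and the sample titles 5 microM, and the dose was not settled here. The lines were also grown in different media, so line and medium cannot be told apart. Whether the 3 arrays of a group came from separate cultures is not stated, and the spread behind the p-values may therefore be technical. In bulk RNA, fewer cells of a kind and less RNA per cell cannot be told apart either.

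Levels are log2 of background-corrected, quantile-normalized intensity, and differences are log2 fold changes ± SE from one limma fit of all 24 arrays. Where arrays of compared groups are said not to overlap, the share of all genes of which this held is given with the comparison. Calls are at a Benjamini-Hochberg adjusted p under 0.05 over all genes of a comparison. The shares of all genes given below include dim genes. They were larger among the 7618 genes above background on all 24 arrays, as 33 of the 34 members were. Of these 7618, fitted alone, 1418 were called higher and 1308 lower in LNCaP at 24 h, and 2178 and 2150 at 48 h. In PC3 the counts were 1409 and 1423 at 24 h, 2212 and 2594 at 48 h, and 1767 and 1609 between the DMSO times. Between 17010 and 20101 probes were above background per array, and every array correlated best with one of its own group. The line labels were checked on known genes, and 7 of 8 LNCaP markers and 10 of 10 PC3 markers were higher on all arrays of their own line than on any of the other. A pair of arrays was in doubt once the data had been seen. PC3 Siomycin 48 h replicate 3 had the fewest probes above background (17010) and an upper quartile of intensity of 129.9 against at least 156 on every other array. LNCaP Siomycin 24 h replicate 1 had the lowest mean correlation with its group (0.984).

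Cytosolic synthetases rose in LNCaP cells after Siomycin A at both times, whereas mitochondrial synthetases did not rise with them. At 24 h, 12 of 18 cytosolic members were higher and 2 lower, with a median log2 fold change of 0.43 against 0.02 for all genes. Of 13344 genes 20.8% were called, 10.5% higher and 10.4% lower. The arrays of both groups did not overlap for 15.6% of genes upwards and 14.4% downwards, and for 11 and 2 cytosolic members. At 48 h again 12 were higher and 4 lower (median 0.52 against 0.01 for all genes), where 37.4% of genes were called, 19% higher and 18.4% lower. Arrays did not overlap for 25.8% of genes upwards and 24.7% downwards, and for 12 and 4 cytosolic members. The 12 higher members were the same at both times: AARS1, EPRS1, GARS1, IARS1, KARS1, LARS1, MARS1, NARS1, SARS1, TARS1, WARS1 and YARS1. Of the 16 mitochondrial members 0 were higher (1 at an unadjusted p under 0.05 in limma) and 3 lower at 24 h (median -0.06), and 1 was higher and 6 lower at 48 h (median -0.14). Without both doubted arrays the 24 h counts were 10 higher and 2 lower cytosolic and 4 lower mitochondrial members (FARSA was among the calls lost), and the 48 h counts were as given. With median centring of the arrays in place of quantile normalization, 9 cytosolic members were higher and 0 lower at 24 h, and 8 higher and 1 lower at 48 h. The centre was the median of all 47318 probes of an array, and only 17010 to 20101 of these were above background.

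**Figure D1:**
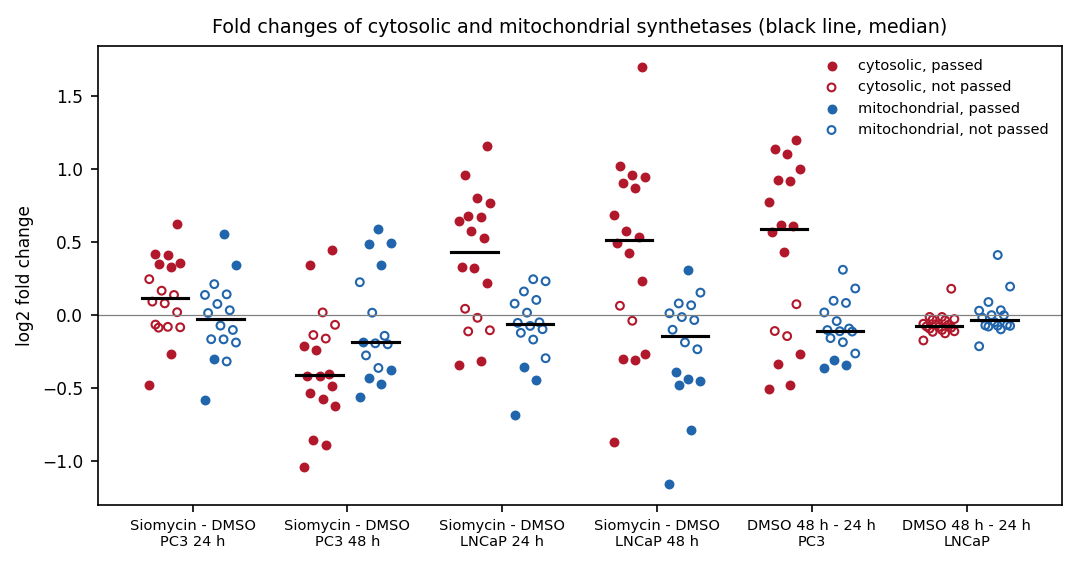
Log2 fold changes of the 18 cytosolic (red) and 16 mitochondrial (blue) synthetases in 6 comparisons, 1 point per gene; filled points passed the test (adjusted p under 0.05), open ones did not, and black lines are class medians. The cytosolic median lies at 0.43 and 0.52 in LNCaP after Siomycin and at 0.59 in the PC3 DMSO time comparison, while the mitochondrial median lies below 0 in all 6.

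SARS1, the seryl-tRNA synthetase, had the largest rise of the set in LNCaP. Its log2 level was 9.29, 9.24 and 9.28 on the DMSO arrays at 24 h and 10.69, 10.41 and 10.18 on the Siomycin arrays. At 48 h it was 9.20, 9.10 and 9.23 with DMSO and 10.87, 10.86 and 10.90 with Siomycin. All Siomycin arrays lay above all DMSO arrays at both times, and the fold changes were 1.16 ± 0.09 (adjusted p = 1.3e-08) and then 1.70 ± 0.09 (adjusted p = 3.2e-11). The difference between the times, 0.54 ± 0.13, passed its own test (adjusted p = 0.013).

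GARS1, which charges glycine tRNA in both compartments, was the next at 24 h. It had levels of 12.06, 12.12 and 12.09 with DMSO and 12.99, 13.17 and 12.99 with Siomycin at 24 h. The 48 h levels were 11.90, 12.01 and 12.02 with DMSO and 12.89, 12.99 and 12.94 with Siomycin. The groups did not overlap, and the change was 0.96 ± 0.07 at both times (adjusted p = 4e-09 and 1.9e-09). AARS1, the alanyl enzyme, went from 12.04, 12.24 and 12.12 to 12.92, 12.57 and 12.64 at 24 h (0.58 ± 0.09, adjusted p = 4.6e-05). Its rise at 48 h, from 12.01, 12.11 and 12.10 to 13.02, 13.09 and 13.18, came to 1.02 ± 0.09 (adjusted p = 1.2e-08). The difference between the times for AARS1 was 0.45 ± 0.12 (adjusted p = 0.026), a call lost when any of 5 of the 12 LNCaP arrays was left out and with the line fitted alone.

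NARS1, TARS1, WARS1 and YARS1, also free cytosolic enzymes, rose at both times. NARS1, for asparagine, moved from 11.43, 11.35 and 11.46 to 12.21, 12.39 and 12.37 at 48 h (0.91 ± 0.10, adjusted p = 5.5e-07), after 0.65 ± 0.10 at 24 h. TARS1, for threonine, moved from 10.80, 10.74 and 10.94 to 11.46, 11.85 and 11.58 at 24 h (0.80 ± 0.11, adjusted p = 1.3e-05) and stood at 0.69 ± 0.11 at 48 h. WARS1, the tryptophanyl enzyme, which interferon is also known to induce, went from 10.06, 9.92 and 9.98 to 10.85, 10.99 and 10.96 at 48 h (0.95 ± 0.08, adjusted p = 8e-09). No DMSO and Siomycin arrays overlapped in these 3 comparisons. A second WARS1 probe gave 0.78 at 24 h and 0.91 at 48 h, beside 0.67 and 0.95 for the probe reported. YARS1, for tyrosine, rose by 0.53 ± 0.07 and 0.50 ± 0.07.

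Within the multisynthetase complex 5 of 7 tested enzymes rose at each time and 0 fell (medians 0.33 and 0.43). Outside it 7 of 11 rose at each time, and 2 fell at 24 h and 4 at 48 h (medians 0.58 and 0.69). MARS1, the methionyl enzyme of the complex, had levels of 9.89, 9.97 and 10.14 with DMSO at 24 h against 10.77, 10.77 and 10.76 with Siomycin (0.77 ± 0.09, adjusted p = 1.2e-06). IARS1, its isoleucyl enzyme, went from 10.73, 10.83 and 10.77 to 11.57, 11.32 and 11.48 (0.68 ± 0.08, adjusted p = 2.1e-06). Neither gene's groups overlapped. At 48 h the changes were 0.87 ± 0.09 for MARS1 and 0.53 ± 0.08 for IARS1. LARS1, for leucine, rose by 0.33 ± 0.08 and 0.57 ± 0.08, and EPRS1, which joins the glutamyl and prolyl activities in 1 protein, by 0.33 ± 0.10 and 0.43 ± 0.10. KARS1, for lysine, had the smallest rises of the 12, 0.22 ± 0.07 (adjusted p = 0.038) and then 0.23 ± 0.07 (adjusted p = 0.018), and each call was lost when any of 4 of the 6 arrays was left out. The 24 h calls of EPRS1 and KARS1 were lost without both doubted arrays, and that of EPRS1 also without DMSO replicate 2 or 3 or Siomycin replicate 3. For EPRS1 the arrays also overlapped at 24 h, since 1 DMSO array (12.28) lay above 1 Siomycin array (12.26). QARS1 (-0.11 ± 0.09 and 0.07 ± 0.09) and RARS1 (0.04 ± 0.08 and -0.04 ± 0.08), for glutamine and arginine, did not pass the test at either time.

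The subunits of the phenylalanyl enzyme went the other way in LNCaP. FARSA, the alpha subunit, had levels of 8.88, 8.70 and 8.92 with DMSO at 48 h and 8.003, 7.981 and 7.904 with Siomycin. All Siomycin arrays were lower, by -0.87 ± 0.09 (adjusted p = 2.6e-07). At 24 h its levels were 8.86, 8.75 and 8.93 against 8.42, 8.67 and 8.50 (-0.31 ± 0.09, adjusted p = 0.018), a call lost without LNCaP Siomycin 24 h replicate 1 or 3 or DMSO replicate 1 or 3. The difference between times for FARSA, -0.55 ± 0.13, passed (adjusted p = 0.01). FARSB, the beta subunit, went from 12.88, 12.87 and 12.97 to 12.61, 12.62 and 12.57 at 48 h (-0.30 ± 0.09, adjusted p = 0.0087) and stood at -0.10 ± 0.09 at 24 h.

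VARS1, for valine, was lower at both times. It moved from 10.56, 10.61 and 10.62 to 10.14, 10.30 and 10.33 at 24 h (-0.34 ± 0.08, adjusted p = 0.0036). The 48 h change was -0.27 ± 0.08 (adjusted p = 0.011), with no overlap of arrays at either time. The 48 h call was lost without DMSO replicate 1 or Siomycin replicate 2, and both calls with median centring. A dim second probe, above background on 5 arrays, gave -0.29 and -0.62. HARS1, for histidine, fell at 48 h, from 10.06, 10.15 and 10.15 to 9.80, 9.83 and 9.83 (-0.30 ± 0.10, adjusted p = 0.028). That call was lost when any of 5 of the 6 arrays was left out.

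**Figure D2:**
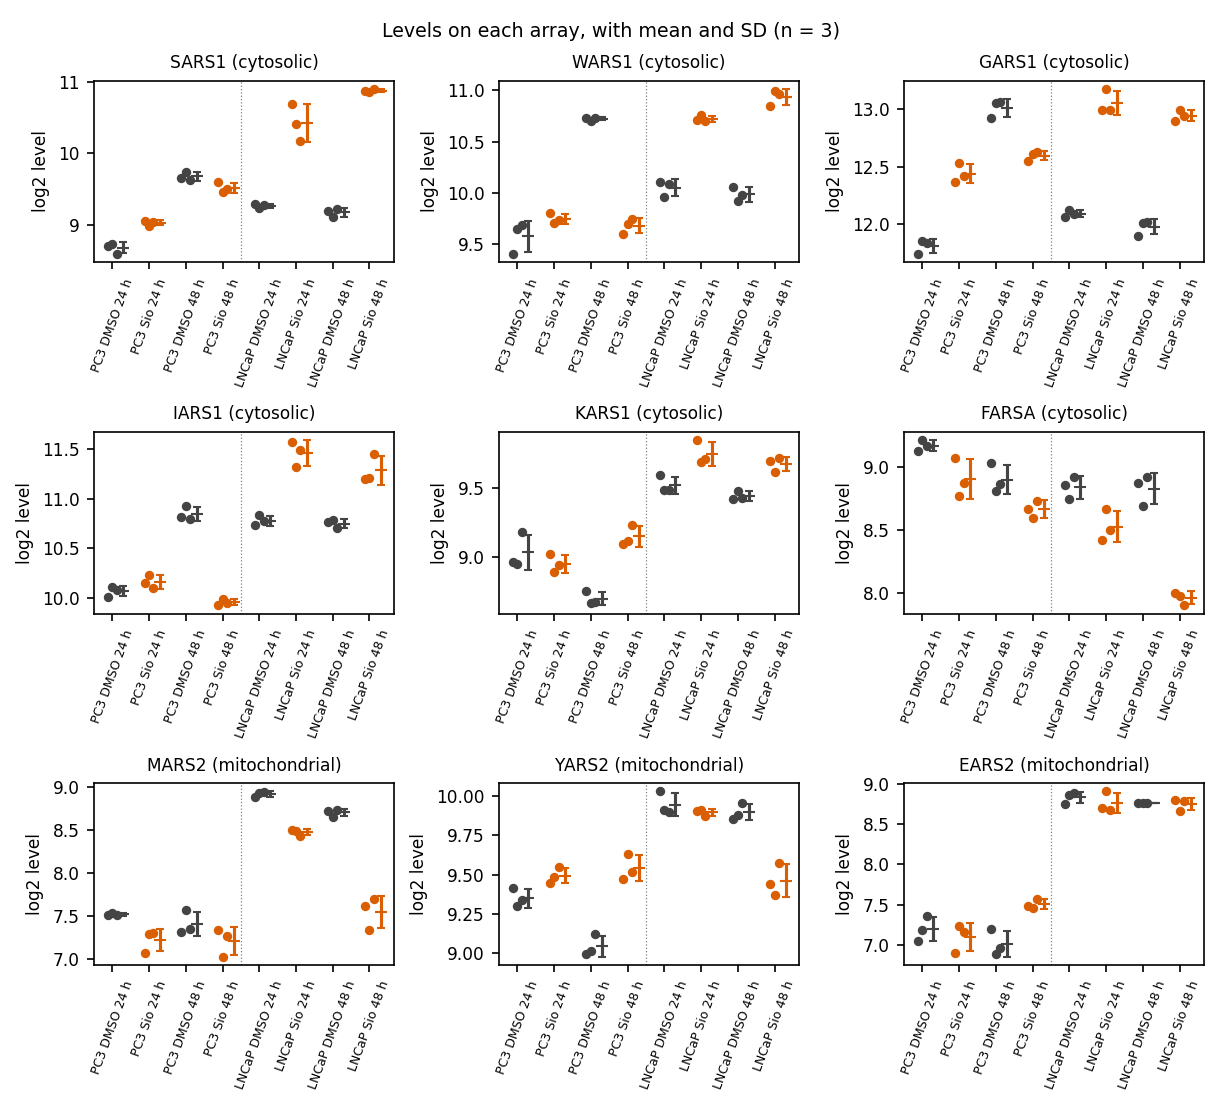
Log2 level on each array for 6 cytosolic and 3 mitochondrial synthetases in the 8 groups, with DMSO in grey and Siomycin in orange; bars give the mean and SD of 3 arrays, and each panel has its own scale, so levels are compared within a panel. SARS1, GARS1 and IARS1 rise with Siomycin in LNCaP, and all 3 rise between 24 h and 48 h on the PC3 DMSO arrays.

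Among mitochondrial synthetases in LNCaP, those that changed at 24 h fell. MARS2, the mitochondrial methionyl enzyme, had levels of 8.73, 8.65 and 8.73 with DMSO at 48 h and 7.61, 7.34 and 7.70 with Siomycin. The groups lay far apart, at -1.15 ± 0.10 (adjusted p = 1.3e-08). At 24 h MARS2 went from 8.88, 8.93 and 8.94 to 8.51, 8.49 and 8.43 (-0.44 ± 0.10, adjusted p = 0.0026), and the difference between the times was -0.71 ± 0.14 (adjusted p = 0.0029). A second MARS2 probe, above background on only 3 arrays, gave 0.11 at 24 h and -0.20 at 48 h, and with the mean of both probes the 24 h call was lost. The cytosolic and mitochondrial methionyl enzymes thus had opposite signs in LNCaP, 0.87 for MARS1 and -1.15 for MARS2 at 48 h.

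CARS2, for mitochondrial cysteine tRNA, fell at both times in LNCaP. Its levels were 7.50, 7.53 and 7.26 with DMSO and 6.82, 6.58 and 6.84 with Siomycin at 24 h (-0.68 ± 0.17, adjusted p = 0.0055), and the change at 48 h was -0.78 ± 0.17 (adjusted p = 0.00082). LARS2, for leucine, moved from 8.60, 8.48 and 8.41 to 8.02, 8.12 and 7.93 at 48 h (-0.47 ± 0.11, adjusted p = 0.0014). VARS2, for valine, moved from 9.39, 9.38 and 9.52 to 8.98, 8.94 and 9.03 (-0.45 ± 0.12, adjusted p = 0.0051). None of these groups overlapped. YARS2 (-0.43 ± 0.07) and TARS2 (-0.39 ± 0.13), for tyrosine and threonine, also fell at 48 h, the TARS2 call being lost without DMSO replicate 1 or 2 or Siomycin replicate 3, and AARS2, for alanine, at 24 h (-0.36 ± 0.12, adjusted p = 0.033), where leaving out any of 4 of the 6 arrays ended the call. RARS2, for arginine, was the only mitochondrial member called higher, from 8.01, 8.08 and 7.86 to 8.28, 8.35 and 8.25 at 48 h (0.31 ± 0.10, adjusted p = 0.017). This call was lost without DMSO replicate 3 or Siomycin replicate 2 of that time. EARS2, FARS2, HARS2, IARS2, NARS2, PARS2 and SARS2 did not pass at either time in LNCaP, with fold changes between -0.23 (PARS2) and 0.25 (HARS2), and WARS2 was below background throughout.

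**Figure D3:**
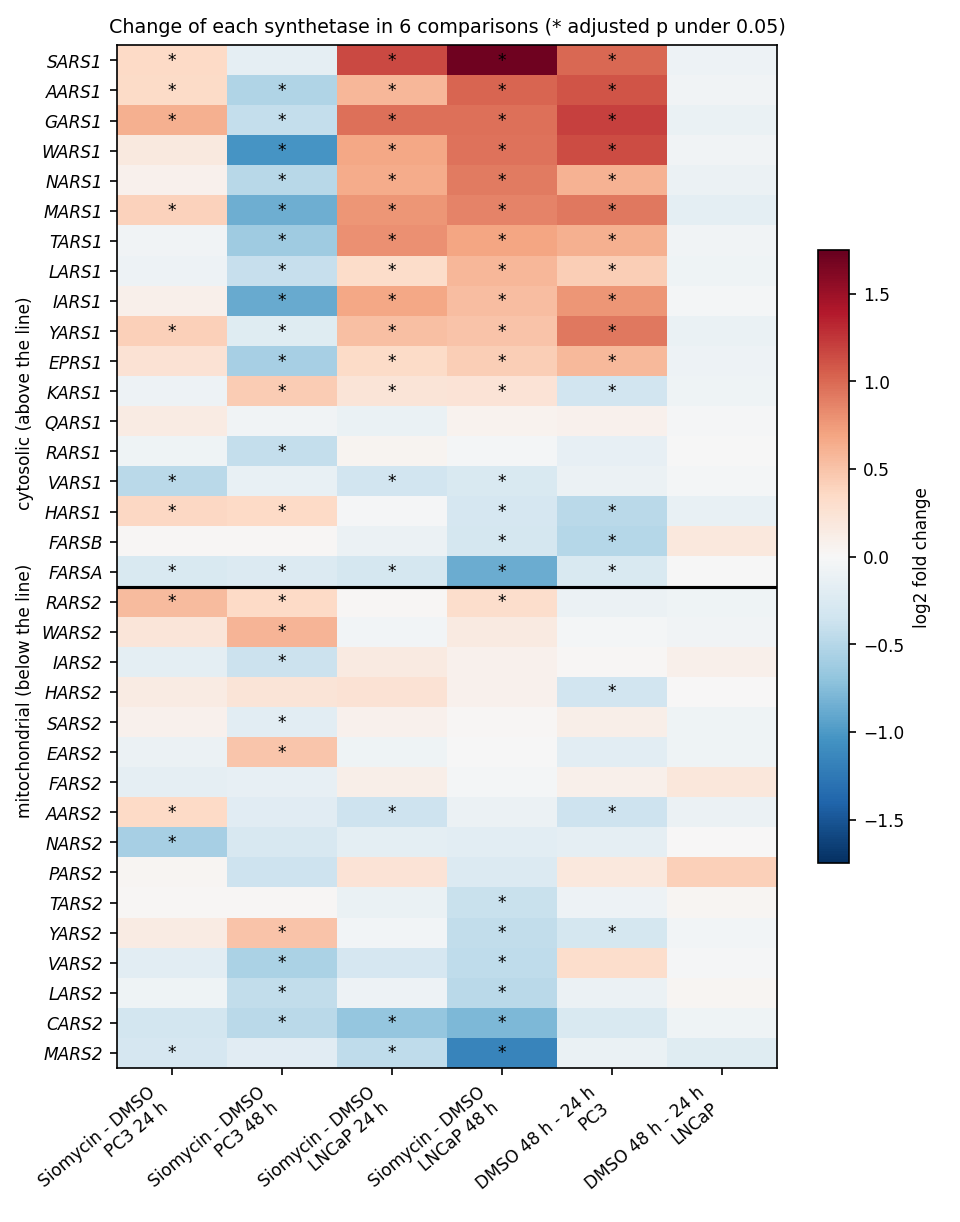
Log2 fold change of each of the 34 tested synthetases in 6 comparisons (red higher, blue lower, asterisk for an adjusted p under 0.05), with cytosolic members above the line. The block of red in the LNCaP Siomycin columns and the PC3 DMSO time column covers the same cytosolic genes, apart from KARS1, which was lower in the latter (-0.33).

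In PC3 the solvent cultures themselves changed over time, and this sets what the 48 h comparison measures. Between 24 h and 48 h in DMSO, 11 of 18 cytosolic members rose and 4 fell (median 0.59 against 0.00 for all genes, where 28.3% of genes were called, 14.4% higher and 13.9% lower). Arrays did not overlap for 22.6% of genes upwards and 21.9% downwards, and for 12 and 6 cytosolic members. Of the 16 mitochondrial members 0 rose and 3 fell (median -0.10), and 1 was higher at an unadjusted p under 0.05 in limma. In LNCaP DMSO cultures 0 members were called between the same times (limma; medians -0.07 and -0.03), where 0.547% of all genes were, 0.337% higher and 0.21% lower. At an unadjusted p under 0.05, 0 cytosolic members and 2 higher and 1 lower mitochondrial members passed in limma there. Arrays did not overlap there for 10.4% and 9.43% of genes. The 11 that rose in PC3 DMSO were all among the 12 that rose with Siomycin in LNCaP, a pair of comparisons with no array in common, and KARS1 was the remaining one. How many of all genes were called higher in both was not counted, so this overlap has no background beside it. With median centring, 7 cytosolic members rose and 4 fell in PC3 DMSO, and the median of all genes was -0.13 in place of 0.00. All genes split into 1922 higher and 1852 lower under quantile normalization and 532 higher and 2243 lower under median centring.

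GARS1 rose most over time in PC3 DMSO, from 11.74, 11.85 and 11.84 at 24 h to 12.92, 13.05 and 13.06 at 48 h (1.20 ± 0.07, adjusted p = 2.1e-10). WARS1 went from 9.41, 9.65 and 9.68 to 10.73, 10.70 and 10.73 (1.14 ± 0.08, adjusted p = 1.4e-09). AARS1 went from 11.59, 11.44 and 11.55 to 12.53, 12.72 and 12.62 (1.10 ± 0.09, adjusted p = 9.4e-09). In each case the arrays of both times were well apart. SARS1 (1.00 ± 0.09), MARS1 (0.93 ± 0.09), YARS1 (0.92 ± 0.07) and IARS1 (0.78 ± 0.08) followed. FARSB (-0.50 ± 0.09), HARS1 (-0.47 ± 0.10), KARS1 (-0.33 ± 0.07) and FARSA (-0.27 ± 0.09) fell, the last a call lost when any of 5 of the 6 arrays was left out. The mitochondrial members that fell were AARS2 (-0.36 ± 0.12), HARS2, for histidine (-0.34 ± 0.10), and YARS2 (-0.30 ± 0.07). The call of AARS2 was lost when any of 4 of the 6 arrays was left out, and that of HARS2 without DMSO 24 h replicate 2 or DMSO 48 h replicate 1.

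After 24 h of Siomycin in PC3 the change of the set was small. Of 18 cytosolic members 6 were higher and 2 lower (median 0.12 against 0.00 for all genes), and of 16 mitochondrial members 2 were higher and 2 lower (median -0.03), where 23% of genes were called, 11% higher and 11.9% lower. Arrays did not overlap for 20.5% of genes upwards and 21.4% downwards, and for 8 and 2 cytosolic members. With median centring 1 cytosolic member was higher and 1 lower, and 0 mitochondrial members were called in limma's test. GARS1 rose most, to 12.37, 12.53 and 12.41 from the DMSO levels given above (0.62 ± 0.07, adjusted p = 2.5e-06). It was followed by YARS1, from 10.34, 10.26 and 10.37 to 10.73, 10.78 and 10.71 (0.42 ± 0.07, adjusted p = 0.00014). MARS1 went from 9.81, 9.96 and 9.96 to 10.27, 10.38 and 10.30 (0.41 ± 0.09, adjusted p = 0.0014). These 3 genes had no overlap of arrays.

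HARS1 rose in PC3 at 24 h from 10.14, 10.33 and 10.30 to 10.53, 10.61 and 10.72 (0.36 ± 0.10, adjusted p = 0.015), a call lost without DMSO replicate 1 or Siomycin replicate 3, with SARS1 at 0.35 ± 0.09 and AARS1 at 0.33 ± 0.09. VARS1 fell, from 10.25, 10.21 and 10.37 to 9.90, 9.80 and 9.71 (-0.47 ± 0.08, adjusted p = 0.00017). The second VARS1 probe went the other way (0.58), and the mean of both probes was 0.05 and not called, so the direction for VARS1 rests on the brighter probe. FARSA went from 9.13, 9.22 and 9.17 to 9.08, 8.77 and 8.88 (-0.26 ± 0.09, adjusted p = 0.045), a call lost when any of 5 of the 6 arrays was left out. The other 10 cytosolic members lay between -0.08 and 0.25 and did not pass.

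Mitochondrial members of PC3 moved both ways at 24 h. NARS2, for asparagine, fell from 8.60, 8.48 and 8.48 to 8.02, 7.95 and 7.84 (-0.58 ± 0.14, adjusted p = 0.0053). RARS2 rose from 8.30, 8.26 and 8.14 to 8.74, 8.84 and 8.80 (0.56 ± 0.10, adjusted p = 0.00027). Both pairs of groups were apart. AARS2 went from 7.89, 8.07 and 8.18 to 8.28, 8.41 and 8.49 (0.35 ± 0.12, adjusted p = 0.035), and MARS2 from 7.52, 7.54 and 7.51 to 7.07, 7.29 and 7.31 (-0.30 ± 0.10, adjusted p = 0.032). The last 2 calls were each lost when any of 4 of the 6 arrays was left out.

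At 48 h in PC3, cytosolic synthetases were lower with Siomycin than with DMSO of the same time. Of 18 members 12 were lower and 2 higher (median -0.41 against -0.04 for all genes), and of 16 mitochondrial members 5 were lower and 4 higher (median -0.19). Of all genes 45.8% were called, 19.5% higher and 26.3% lower. Arrays did not overlap for 23.2% of genes upwards and 30.1% downwards, and for 2 and 14 cytosolic members. The counts were the same without both doubted arrays, though not all of the genes were. With median centring 13 cytosolic members were lower and 0 higher, and 11 mitochondrial members were lower and 0 higher. The median of all genes then moved from -0.04 to -0.21 and both class medians were -0.54, so the gap between the classes in this comparison was seen under quantile normalization and not under median centring. Over all genes, 2598 were higher and 3507 lower with quantile normalization, against 844 and 4511 with median centring.

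WARS1 fell most, with 10.73, 10.70 and 10.73 on the DMSO arrays at 48 h and 9.60, 9.70 and 9.75 on the Siomycin arrays (-1.04 ± 0.08, adjusted p = 1.3e-09). Its second probe gave -1.06. IARS1 had levels of 10.81, 10.92 and 10.80 against 9.93, 9.99 and 9.95 (-0.89 ± 0.08, adjusted p = 1.6e-08), and MARS1 10.84, 10.88 and 10.79 against 10.06, 9.81 and 10.09 (-0.85 ± 0.09, adjusted p = 7.9e-08). The array groups of these enzymes for tryptophan, isoleucine and methionine were all separate. TARS1 stood at 11.08, 11.05 and 11.22 against 10.43, 10.54 and 10.52 (-0.62 ± 0.11, adjusted p = 7.1e-05), and EPRS1 at 12.39, 12.51 and 12.51 against 11.92, 11.94 and 11.82 (-0.58 ± 0.10, adjusted p = 5e-05).

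AARS1 (-0.53 ± 0.09), NARS1 (-0.48 ± 0.10), GARS1 (-0.42 ± 0.07), RARS1 (-0.41 ± 0.08), LARS1 (-0.40 ± 0.08), FARSA (-0.24 ± 0.09) and YARS1 (-0.21 ± 0.07, a call lost without DMSO replicate 2 or Siomycin replicate 1) were lower too, while SARS1 did not pass (-0.16 ± 0.09, adjusted p = 0.18). KARS1 was higher with Siomycin, at 9.10, 9.12 and 9.23 against 8.76, 8.67 and 8.68 (0.45 ± 0.07, adjusted p = 5e-05). HARS1 was higher as well, at 10.22, 9.99 and 10.17 against 9.86, 9.84 and 9.65 (0.34 ± 0.10, adjusted p = 0.0096). Neither was called with median centring, and HARS1 was not called without DMSO 48 h replicate 3. The FARSA call was lost when any of 4 of the 6 arrays was left out.

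The 48 h DMSO arrays of PC3 enter both the time comparison and the 48 h Siomycin comparison, so opposite signs in them share their source, and the 24 h DMSO arrays are given as a second control. Against these, PC3 cells after 48 h of Siomycin had 4 cytosolic members higher and 4 lower (median 0.02), and 3 mitochondrial members higher and 6 lower, where 48.8% of genes were called, 20.8% higher and 28% lower. SARS1 (0.84 ± 0.09), GARS1 (0.78 ± 0.07), YARS1 (0.71 ± 0.07) and AARS1 (0.57 ± 0.09) were higher. RARS1 (-0.56 ± 0.08), FARSA (-0.50 ± 0.09), FARSB (-0.48 ± 0.09) and VARS1 (-0.24 ± 0.08) were lower. WARS1 (0.10 ± 0.08, adjusted p = 0.3), MARS1 (0.08 ± 0.09, adjusted p = 0.49) and IARS1 (-0.11 ± 0.08, adjusted p = 0.28), which fell most against the matched control, did not pass against the earlier one. With median centring their signs against the earlier control were negative throughout. WARS1 (-0.461, adjusted p = 0.015) and MARS1 (-0.460, adjusted p = 0.014) were then called lower in limma. So were KARS1 (-0.490, adjusted p = 0.0068) and LARS1 (-0.457, adjusted p = 0.022). Whether these genes differed from the earlier control thus depends on the normalization. In LNCaP the same choice of control left 11 cytosolic members higher and 3 lower (37.2% of genes called, 19.4% higher and 17.8% lower) and 0 mitochondrial members higher and 6 lower.

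**Figure D4:**
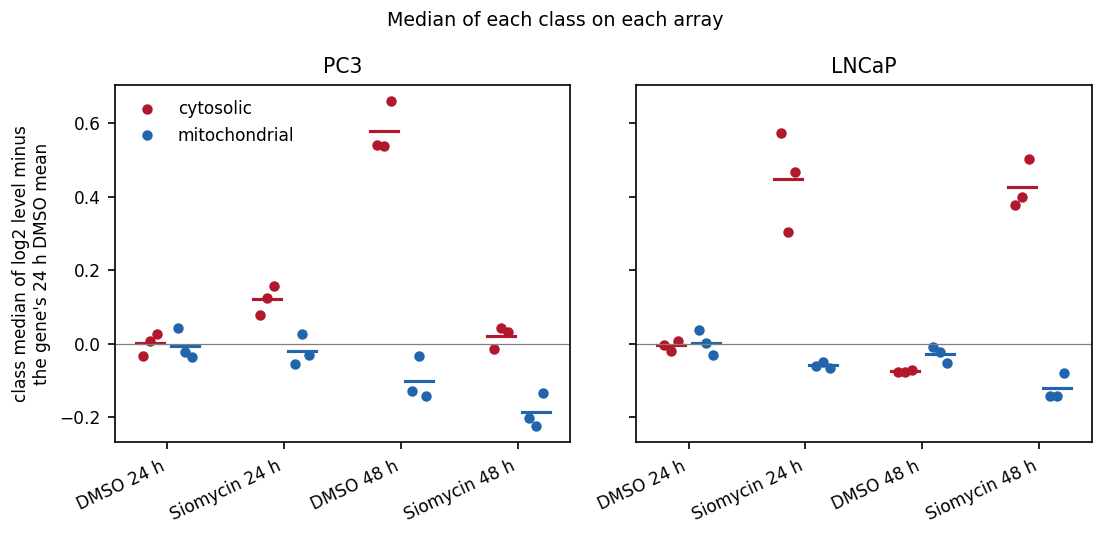
Median over the 18 cytosolic (red) and the 16 mitochondrial (blue) synthetases of each array's log2 level minus that gene's mean on the 24 h DMSO arrays of the same line; points are arrays and bars group means. The PC3 DMSO arrays at 48 h lie at 0.54 to 0.66 for the cytosolic class and the PC3 Siomycin arrays at 48 h between -0.01 and 0.04, while in LNCaP the Siomycin arrays (0.30 to 0.57) lie above all DMSO arrays (-0.08 to 0.01).

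Mitochondrial synthetases in PC3 at 48 h again moved both ways. WARS2, for tryptophan, was higher, with 6.84, 6.92 and 6.95 on Siomycin against 6.21, 6.43 and 6.31 on DMSO arrays (0.59 ± 0.08, adjusted p = 4.6e-06). EARS2, for glutamate, was at 7.48, 7.46 and 7.57 against 7.19, 6.89 and 6.96 (0.49 ± 0.10, adjusted p = 0.00046), and YARS2 at 9.47, 9.63 and 9.52 against 8.999, 9.019 and 9.122 (0.49 ± 0.07, adjusted p = 8.7e-06). These groups were separate, and all 3 calls were lost with median centring. VARS2 was lower, at 8.69, 8.51 and 8.78 against 9.40, 9.23 and 9.02 (-0.56 ± 0.12, adjusted p = 0.00065).

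RARS2 was higher (0.34 ± 0.10), as at 24 h. CARS2 (-0.47 ± 0.17), LARS2 (-0.43 ± 0.11), IARS2, for isoleucine (-0.37 ± 0.08), and SARS2, for serine (-0.18 ± 0.07), were lower. For CARS2 and LARS2 the Siomycin and DMSO arrays overlapped. CARS2 and SARS2 lost their calls without both doubted arrays, without DMSO 48 h replicate 3 and without Siomycin 48 h replicate 3. CARS2 lost its call without Siomycin replicate 1 as well, and SARS2 without DMSO replicate 1 or Siomycin replicate 2. WARS1 and WARS2, the enzymes of the 2 compartments for tryptophan, thus stood at -1.04 and 0.59 against DMSO of the same time. The WARS1 value contains its rise of 1.14 on the DMSO arrays, and against the 24 h DMSO arrays WARS1 stood at 0.10 and did not pass. The WARS2 call was lost with median centring.

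The difference between the lines, each with its medium, in the change with Siomycin was tested at each time. At 48 h the LNCaP effect minus the PC3 effect was called for 15 of 18 cytosolic members, 12 higher and 3 lower (median 0.99 against 0.05 for all genes, where 43.2% were called, 24.2% higher and 19% lower). The largest were WARS1 (1.99 ± 0.11, adjusted p = 3.8e-11), SARS1 (1.86 ± 0.13, adjusted p = 1e-09) and MARS1 (1.72 ± 0.12, adjusted p = 8.9e-10). These differences contain the step of the PC3 DMSO arrays between 24 h and 48 h. Of the mitochondrial members 5 were called, 1 higher and 4 lower, among them MARS2 (-0.96 ± 0.14) and YARS2 (-0.93 ± 0.10). Another of the 4 lower was WARS2, which was below background on the LNCaP arrays and so has no measured effect there. Its call was lost with no background correction, with the authors' log2 values and with median centring.

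At 24 h, before that step, the line difference was called for 7 cytosolic members, all higher in LNCaP, and for 2 mitochondrial members, both lower, where 14.2% of genes were called, 6.75% higher and 7.49% lower. TARS1 (0.86 ± 0.15, adjusted p = 0.00055) and SARS1 (0.81 ± 0.13, adjusted p = 0.00027) led the former, with IARS1, NARS1, WARS1, LARS1 and GARS1 between 0.34 and 0.59. The GARS1 call was lost when any of 7 of the 12 arrays was left out, and that of LARS1 with any of 3. AARS2 (-0.70 ± 0.16, adjusted p = 0.0059) and RARS2 (-0.54 ± 0.14, adjusted p = 0.011) were the latter. With median centring 1 cytosolic and 0 mitochondrial differences were called in limma's test at 24 h, so the calls at that time depend on the normalization. The cytosolic median of the line difference was 0.28 in the reported fit and 0.26 with median centring.

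Over time in PC3 the effect changed for 13 cytosolic members, 11 towards lower and 2 towards higher (median -0.53), and for 4 mitochondrial members, 3 higher and 1 lower, where 25.1% of genes were called, 9.44% higher and 15.6% lower. MARS1 (-1.26 ± 0.12, adjusted p = 2.5e-07), WARS1 (-1.21 ± 0.11, adjusted p = 1.3e-07) and GARS1 (-1.04 ± 0.10, adjusted p = 2.9e-07) changed most, again with the step of the DMSO arrays contained. In LNCaP, where the DMSO arrays showed no such step, 3 cytosolic and 2 mitochondrial members changed and 8.9% of genes were called, 4.5% higher and 4.39% lower. They were AARS1 and SARS1 towards higher, and FARSA, MARS2 and YARS2 (-0.38 ± 0.10, adjusted p = 0.02) towards lower, the YARS2 call being lost when any of 4 of the 12 arrays was left out. With median centring none of these 5 was called.

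The 6 cytosolic genes that hold the TGATGNAA core were among those that moved together. In LNCaP their median was 0.72 at 24 h and 0.89 at 48 h, with 6 of 6 higher each time. The 9 other cytosolic genes with a promoter in the table had medians of 0.04 and 0.07, with 4 higher and 1 lower at 24 h and 4 higher and 3 lower at 48 h. Over time in PC3 DMSO the medians were 0.85 (6 higher) and -0.14 (3 higher, 4 lower). After 24 h of Siomycin in PC3 the sets lay close, at 0.21 (3 higher, 0 lower) and 0.14 (2 higher, 1 lower). After 48 h of Siomycin in PC3 they were -0.58 (6 lower) and -0.16 (2 higher, 4 lower). SARS1, which rose most in LNCaP, and WARS1 are among the 9 whose windows hold no TGATGNAA, while YARS2, the mitochondrial gene that holds it, fell in LNCaP at 48 h (-0.43 ± 0.07). Called higher and lower were 10.5% and 10.4% of all genes in LNCaP at 24 h, and 19% and 18.4% at 48 h. The shares were 14.4% and 13.9% over time in PC3 DMSO. After Siomycin in PC3 they were 11% and 11.9% at 24 h and 19.5% and 26.3% at 48 h. The medians of both sets describe the genes and carry no test. The core is shown because members that moved together differed in it, so this split does not stand apart from these values. Changes of other genes that hold the core were not counted.

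On the 24 h DMSO arrays the members differed between the lines about as often as all genes did. Of 18 cytosolic members 10 were higher in LNCaP and 2 lower, where 60.9% of all genes were called, 29.5% higher and 31.5% lower. YARS1 (0.88 ± 0.07), IARS1 (0.71 ± 0.08) and AARS1 (0.61 ± 0.09) were higher, and FARSB (-0.40 ± 0.09) and FARSA (-0.33 ± 0.09) lower. Of 16 mitochondrial members 7 were higher and 3 lower. EARS2 was at 8.75, 8.87 and 8.88 in LNCaP against 7.05, 7.19 and 7.36 in PC3 (1.63 ± 0.10, adjusted p = 1.2e-11), with MARS2 at 1.39 ± 0.10 and SARS2 at 1.10 ± 0.07. One of the 3 lower was WARS2, which was not well above background in LNCaP and at least 2.99-fold lower there than in PC3. It was kept only through the PC3 arrays, so this difference is a description with no test.

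Genes around the synthetases were read from 6 lists of tRNA supply and use, in which GFM2 and AARSD1 were not analysed here. In the list of genes for the sensing of uncharged tRNA and the response to it, ATF4 mRNA rose in PC3 at 24 h (0.64 ± 0.07). It also rose in LNCaP at 24 h (0.74 ± 0.07) and 48 h (0.77 ± 0.07) and between the PC3 DMSO times (1.53 ± 0.07, adjusted p = 5.1e-12). It was lower after 48 h of Siomycin in PC3 (-0.25 ± 0.07, adjusted p = 0.0069). Its levels in LNCaP at 48 h were 13.06, 12.94 and 12.98 with DMSO and 13.68, 13.81 and 13.82 with Siomycin, which do not overlap. EIF2AK4, the kinase GCN2, fell in PC3 at 48 h (-0.52 ± 0.12), and EIF2S1, the alpha subunit of eIF2, fell in LNCaP (-0.31 ± 0.10 and -0.29 ± 0.10). Of the 5 genes of this list 1 was higher and 0 lower in PC3 at 24 h, 0 and 2 at 48 h, and 1 and 1 at both times in LNCaP. The shares of all genes called were 23%, 45.8%, 20.8% and 37.4%, so the counts of this list at 48 h were near the background.

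XPOT, the nuclear exporter of tRNA, had changes of the same sign as most cytosolic synthetases. In LNCaP it went from 8.72, 8.71 and 8.65 to 9.83, 9.79 and 10.13 at 48 h (1.22 ± 0.11, adjusted p = 2.3e-08), after 0.82 ± 0.11 at 24 h. The PC3 DMSO arrays rose from 8.03, 7.77 and 7.68 to 9.04, 9.45 and 9.21 (1.41 ± 0.11), and Siomycin at 48 h was lower than these (-0.69 ± 0.11). XPOT did not pass in PC3 at 24 h (0.23). POP1, a subunit of ribonuclease P, which trims tRNA precursors, fell in LNCaP (-0.49 ± 0.13 at 24 h, then -1.17 ± 0.13 at 48 h, adjusted p = 3.3e-07). In PC3 it was at 0.40 ± 0.13 at 24 h and -0.41 ± 0.13 at 48 h. ELAC1, a tRNA 3′ end nuclease near background here, was called lower in PC3 at 24 h but only 1 of its 3 Siomycin arrays there exceeded background, so no fold is given. In the tRNA maturation and export list of 9 genes, 1 was higher and 6 lower in LNCaP at 48 h, 1 and 1 at 24 h, and in PC3 1 and 1 at 24 h and 1 and 3 at 48 h. The shares of all genes called were 37.4%, 20.8%, 23% and 45.8% in the same order.

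Factors that use charged tRNA were counted by compartment, and no test was made between the lists. In LNCaP at 48 h, where 37.4% of all genes were called (19% higher, 18.4% lower), 1 of 11 tested mitochondrial translation factors was higher and 6 lower (median -0.27). TSFM, the exchange factor of the mitochondrial elongation factor Tu, went from 8.13, 8.19 and 8.35 to 7.41, 7.34 and 7.29 (-0.87 ± 0.13, adjusted p = 1.3e-05). MRRF, the mitochondrial ribosome recycling factor, stood at -0.70 ± 0.08. The release factor MTRF1 was called lower in limma (adjusted p = 0.016), but 0 of its 3 Siomycin arrays exceeded background, so no fold is given. Of 5 cytosolic elongation factors 3 were higher and 0 lower (median 0.28), led by EEF1G (0.46 ± 0.08) and EEF1A2 (0.39 ± 0.07), subunits of the complex that brings charged tRNA to the ribosome and recycles the factor that does so. EEF1A1, another of the 5, had the same highest log2 level, 14.75, on many arrays of both lines and treatments. A rise of EEF1A1 could therefore not show. Both GATC (-0.64 ± 0.16) and GATB (-0.28 ± 0.08), which convert misloaded glutamate on mitochondrial glutamine tRNA, fell. QRSL1, the third subunit, was not called, but it exceeded background on at most 1 array of any group, so a fall could hardly show.

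Of all genes 20.8% were called in LNCaP at 24 h, 23% in PC3 at 24 h and 45.8% in PC3 at 48 h. Mitochondrial factors had 2 higher and 0 lower in LNCaP at 24 h, led by MTRF1L (0.27 ± 0.08) and TUFM (0.23 ± 0.08). In PC3 2 were higher and 1 lower at 24 h, with MTIF2 at -0.42 ± 0.09 and MTRFR at 0.33 ± 0.07, and 3 and 3 at 48 h, with MTRFR at -0.57 ± 0.07 and MRRF at -0.56 ± 0.08. Cytosolic elongation factors had 1 higher and 0 lower in each of these 3 comparisons, EEF1G in PC3 (0.28 ± 0.08) and LNCaP (0.24 ± 0.08) at 24 h and EEF1D in PC3 at 48 h (0.42 ± 0.08). No amidotransferase gene was called in them (limma).

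In the list of editing and selenocysteine genes the PC3 values at 48 h were the largest. PSTK, the kinase that prepares tRNA for selenocysteine, was at 7.22, 7.24 and 7.05 with Siomycin against 5.69, 5.86 and 5.80 with DMSO (1.39 ± 0.11, adjusted p = 2.2e-09). DTD2, which removes wrongly attached amino acids from tRNA, was at 5.03, 5.55 and 5.12 against 6.45, 6.65 and 6.73 (-1.37 ± 0.14, adjusted p = 1.2e-07) and above background on 2 of the 3 Siomycin arrays. Both pairs of groups were separate. Of 4 tested genes 1 was higher and 2 lower in PC3 at 48 h, 1 and 1 at 24 h (PSTK at 0.42 ± 0.11 and DTD1 at -0.37 ± 0.10), 0 and 0 in LNCaP at 24 h and 0 and 2 at 48 h (DTD2 at -0.51 ± 0.14 and PSTK at -0.49 ± 0.11). Of all genes 45.8%, 23%, 20.8% and 37.4% were called in these comparisons.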

How the data were processed

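Total RNA of PC3 and LNCaP cells was hybridised to Illumina bead arrays, 24 in all. The deposited file of the authors gives, per the file headers, an unnormalized linear intensity and a detection p-value per array for 47318 probes. A second deposited table holds the authors' log2 values. The submitters' processing notes name lumi, with a version not given in the sources used here, and these log2 values matched quantile-normalized log2 intensity without background correction to within 5.116e-09.

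Here intensity was background-corrected with the normexp model, an offset of 16 was added, and log2 values were quantile-normalized. The deposited detection p-values were small for very dim probes too, so limma's standard use of them was adapted: the median signal of probes with p above 0.9 was the background centre, and the dimmer probes gave its SD. A probe was above background where p was under 0.01 and its signal exceeded the centre, and probes above background on at least 3 arrays were kept (25215), and the one with the highest mean stood for each of 13344 genes. One linear model over the 8 groups was fitted with limma 3.58.1 in R 4.3.3, with 16 residual degrees of freedom, and p-values were adjusted by Benjamini-Hochberg over all genes. The linear model was tested on simulated log2 values, for Siomycin minus DMSO in PC3 at 24 h only. Background correction, the filter, the choice of probes and the promoter search were not tested in this way. Of all probes 30111 had 1 gene symbol, 8 several and 17199 none, and only the first kind was used. The number of arrays limits the precision. Chip positions, not given in the sources used here, were not used as a batch.

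The synthetases and the other lists were chosen with earlier results of these data known. By rule, array values were given for up to 5 cytosolic and 4 mitochondrial called members with the largest change in each Siomycin comparison, and for up to 3 against the majority. Up to 3 called members were named in each difference of effects or DMSO time comparison, and up to 2 for each other list. Further values were added to account for every member, and MRRF at 48 h in LNCaP and the DMSO time values of the other lists fall outside the rule. Replicate numbers recur in all groups. Same-numbered arrays did not deviate together (r from -0.152 to 0.041 in the 4 Siomycin comparisons), so they were not taken as pairs. Alternatives were no background correction, the authors' log2 values, an offset of 50, median centring, other filters, the mean of a gene's probes, array weights, each line fitted alone, a replicate block, leaving out each array, and, chosen after seeing the data, leaving out both arrays in doubt.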

Additional observations from a re-analysis of the deposited data

Results flagged for a closer look

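Results are listed here because the effect of Siomycin differed between times or between lines by a test of the difference itself (limma, adjusted over all genes). Between 24 h and 48 h in PC3 the effect differed for 13 cytosolic and 4 mitochondrial synthetases, with MARS1 at -1.26, WARS1 at -1.21 and GARS1 at -1.04. In LNCaP it differed for 3 cytosolic and 2 mitochondrial members, with MARS2 at -0.71, FARSA at -0.55 and SARS1 at 0.54. Between the lines (LNCaP effect minus PC3 effect) it differed at 24 h for 7 cytosolic and 2 mitochondrial members, with TARS1 at 0.86, SARS1 at 0.81 and AARS2 at -0.70. At 48 h it differed for 15 and 5, with WARS1 at 1.99, SARS1 at 1.86 and MARS1 at 1.72. The 5 include WARS2, which was below background on the LNCaP arrays and so has no measured effect there. The PC3 differences that use the 48 h arrays contain the rise of cytosolic synthetases on the PC3 DMSO arrays between the times (median 0.59). From 24 h to 48 h in PC3, mean WARS1 levels went from 9.58 to 10.72 with DMSO and from 9.75 to 9.68 with Siomycin. Those of GARS1 went from 11.81 to 13.01 with DMSO and from 12.44 to 12.59 with Siomycin. For MARS1 they went from 9.91 to 10.84 and from 10.32 to 9.99. Why the Siomycin arrays did not rise as the DMSO arrays did was not tested.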

How the results depend on the processing

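Counts below are of called synthetases, with the value of the reported fit first. Median centring moved most of them. For PC3 at 24 h, cytosolic calls went from 8 to 2 (higher 6 to 1, lower 2 to 1) and mitochondrial calls from 4 to 0 (higher 2 to 0, lower 2 to 0). For PC3 at 48 h, cytosolic higher went from 2 to 0, mitochondrial higher from 4 to 0 and lower from 5 to 11. For LNCaP at 24 h, cytosolic calls went from 14 to 9 (lower 2 to 0) and mitochondrial ones from 3 to 1, all lower. For LNCaP at 48 h, cytosolic calls went from 16 to 9 (lower 4 to 1) and mitochondrial higher from 1 to 0. For PC3 DMSO over time, cytosolic higher went from 11 to 7. For the time difference of the effect in PC3, cytosolic higher went from 2 to 0, mitochondrial higher from 3 to 0 and lower from 1 to 4, and in LNCaP cytosolic calls went from 3 to 0 (2 to 0 and 1 to 0) and mitochondrial lower from 2 to 0. For the line difference at 24 h, cytosolic higher went from 7 to 1 and mitochondrial lower from 2 to 0. At 48 h cytosolic lower went from 3 to 0 and mitochondrial calls from 5 to 2 (higher 1 to 0, lower 4 to 2).

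Mitochondrial higher in PC3 DMSO went from 0 to 1 with an offset of 50, the replicate block, array weights, no background correction, the authors' log2 values, the filter for all 24 arrays, and without the doubted arrays. Counts within 1.5 times of the reported one are not listed. With the replicate block mitochondrial lower in PC3 at 48 h was 4 in place of 5, SARS2 losing its call (adjusted p = 0.052), and of 442 gene values 439 kept their side of the threshold, 2 gained a call and 1 lost it; of the 12 arrays compared, 2 correlated best with their own number. Mitochondrial higher in LNCaP at 24 h went from 0 to 1 with the all-array filter, array weights, no background correction and the authors' values, and mitochondrial calls there from 3 to 5 with the last 3. No background correction and the authors' values gave 3 in place of 5 mitochondrial lower in PC3 at 48 h, and 1 in place of 0 for cytosolic lower and mitochondrial higher in the line difference at 24 h, the latter also 1 with the all-array filter. Array weights gave 6 in place of 3 cytosolic calls for time in LNCaP (higher 4, lower 2). Mitochondrial calls there were 4 in place of 2 (higher 1). For the line at 24 h the weights gave 11 in place of 7 cytosolic (lower 2) and 4 in place of 2 mitochondrial calls (higher 2). LNCaP Siomycin 24 h replicates 1, 2 and 3 had weights of 0.215, 0.305 and 8.851, so that group rested mostly on replicate 3 in the weighted fit. Without the doubted arrays, the line difference at 24 h had 2 cytosolic lower and 4 mitochondrial calls (higher 2), and time in LNCaP had 1 mitochondrial higher. Mitochondrial lower for time in PC3 went from 1 to 2 with the all-array filter, array weights and without the doubted arrays.

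With each line fitted alone, PC3 at 24 h had 1 cytosolic lower and 2 mitochondrial calls (1 and 1), and time in LNCaP had 1 cytosolic (higher 0) and 1 mitochondrial call (lower 1). The mean of a gene's probes gave 1 in place of 2 for cytosolic lower in PC3 at 24 h, cytosolic higher for time in PC3 and mitochondrial lower for time in LNCaP, and no filter gave 1 for the first of these. The cause of these shifts was not tested.

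Leaving out 1 array at a time gave the following ranges. PC3 at 24 h had 6 to 9 cytosolic calls (5 to 7 higher, 1 to 2 lower) and 2 to 3 mitochondrial (1 to 2 each way). PC3 at 48 h had 12 to 14 (1 to 2 higher, 10 to 12 lower) and 7 to 9 (4 to 5 higher, 3 to 5 lower), the lowest values of cytosolic higher and mitochondrial lower without DMSO 48 h replicate 3. LNCaP at 24 h had 11 to 14 (10 to 12 higher, 1 to 2 lower) and 2 to 5 (0 to 1 higher, 2 to 4 lower), with the mitochondrial higher call without Siomycin 24 h replicate 1. LNCaP at 48 h had 14 to 15 (11 to 12 higher, 2 to 3 lower, 2 without Siomycin replicate 2) and 6 to 7 (0 to 1 higher, 5 to 6 lower). PC3 DMSO had 14 to 15 (11 higher throughout, 3 to 4 lower) and 1 to 3 (0 to 1 higher, 1 to 3 lower, 1 without DMSO 24 h replicate 2), and LNCaP DMSO 0 throughout. Time in PC3 had 11 to 13 (1 to 2 higher, 10 to 11 lower) and 2 to 5 (2 to 3 higher, 0 to 2 lower), and in LNCaP 2 to 5 (1 to 4 higher, 1 lower) and 1 to 3 (0 to 1 higher, 1 to 2 lower). The line difference had 5 to 9 (5 to 7 higher, 0 to 2 lower) and 2 to 4 (0 to 2 higher, 2 lower) at 24 h, and 14 to 15 (12 higher, 2 to 3 lower) and 5 to 6 (1 higher, 4 to 5 lower) at 48 h. The calls of SARS1, GARS1, AARS1, MARS1, NARS1, TARS1 and WARS1 in LNCaP at both times were lost under none of the alternatives run.

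Signs turned for 10 gene values under median centring. They were RARS2 (-0.0885) and TARS2 (-0.430) in PC3 at 48 h, WARS2 for time in PC3 (-0.0657), and, for PC3 Siomycin 48 h against DMSO 24 h, KARS1 (-0.490), LARS1 (-0.457), MARS1 (-0.460), WARS1 (-0.461), EARS2 (-0.367), WARS2 (-0.0512) and YARS2 (-0.383). With the mean of probes VARS1 turned to 0.0527 in PC3 at 24 h (adjusted p = 0.77) and to -0.291 for time in PC3. Signal near background limits WARS2 in LNCaP and AIMP1 throughout.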
